A study of Drosophila melanogaster with 8 samples.

Results

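Bicoid (Bcd) peaks found in both zelda mutant and wild-type Drosophila melanogaster embryos, with close summits but a clearly shorter peak in the mutant, are described here. Pairs were taken on the chromosome arms 2L, 2R, 3L, 3R, 4 and X where a mutant and a wild-type peak shared 1 bp or more and neither touched any further peak of the opposite genotype. The wild-type peak had to be shorter than 5000 bp, the summits had to lie at most 200 bp apart, and the mutant peak had to be shorter than 0.75 times the wild-type peak. Of 1187 such one-to-one pairs on the arms, 889 met the limits on length and summit distance, and 371 of these were narrowed. The 371 pairs held 19.8% of the 1870 mutant arm peaks and 13.1% of the 2827 wild-type arm peaks. The pairs were chosen by the lengths and summits of both genotypes, so these values are given as a description and without a test.

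The study used chromatin immunoprecipitation and sequencing (ChIP-seq) on embryos 1 to 3 h after egg laying, in 4 groups of 2 replicates. These were zelda mutant Bcd ChIP, zelda mutant input, wild-type Bcd ChIP and wild-type input, and the antibody was a rabbit antiserum raised against full-length Bcd. The labels name neither the zelda allele nor how the mutant embryos were made, and each chromatin preparation pooled many whole embryos. Each genotype is represented by 1 deposited peak list with no values per replicate, from 10060479 ChIP tags for the mutant and 39154546 for wild type after removal of duplicates. The edges of a peak are where its enrichment no longer passes the p cutoff of 1e-05, so a deeper library can carry an edge further out. The wild-type ChIP tags were 3.89 times as many before scaling. In peak calling the bigger of the ChIP and control sets was scaled down to the other. The smaller set was the control of 22487837 tags in wild type and the ChIP set in the mutant. Genotype and depth therefore cannot be told apart in any length below.

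Bcd is a homeodomain activator that is translated from maternal mRNA and spreads as a gradient from the anterior pole of the embryo, where it activates genes that pattern the head and thorax. Zelda, a zinc finger protein supplied by the mother, is present in all nuclei of the early embryo. It binds TAGteam motifs and is known to open chromatin at early enhancers, which eases the binding of patterning factors such as Bcd. A Bcd ChIP peak usually spans a cluster of binding sites in an enhancer or promoter and the sonicated DNA around it, so its width reflects both the sites and the fragments.

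In the mutant, the narrowed peaks were reduced to a short core around the shared summit. Their lengths ran from 842 bp through a median of 1266 bp to 3434 bp in the mutant, against 1289 bp, 2517 bp and 4899 bp in wild type. The interquartile range was 1080 to 1592 bp in the mutant and 1957 to 3288 bp in wild type. In the mutant 307 of the 371 peaks (82.7%, Wilson 95% interval 78.6 to 86.3) were between 1000 and 2000 bp long, against 102 (27.5%, 23.2 to 32.2) in wild type. Over all 1187 pairs the same shares were 72.9% in the mutant and 43.0% in wild type, and over the 518 pairs within the limits that kept their width (ratio of 0.75 or more) they were 73.9% and 71.2% in the same order. A mutant peak of that length was thus usual for shared peaks in general, while the wild-type peak of a narrowed pair was the longer one by the rule. The median mutant length of narrowed pairs was 995 bp in the quintile with the shortest wild-type peaks, which held 3 of them, and 1604 bp in the quintile with the longest. Length in the mutant followed length in wild type less closely than among pairs that kept their width. The Spearman correlation of mutant and wild-type length was 0.64 over the 371 narrowed pairs and 0.92 over the 518 width-keeping pairs. These are correlations across peaks of the same libraries, and the limit on the ratio bounds both.

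The median length ratio, mutant over wild type, was 0.55 (interquartile range 0.46 to 0.65). A ratio under 0.5 was found in 129 pairs and one under 0.3 in 17. A ratio under 0.75 held for 41.7% of the 889 pairs and for 48.5% of all 1187 pairs; this share comes from the rule itself. Together the 371 pairs covered 519 kb in the mutant and 998 kb in wild type, and 480 kb of the wild-type span lay outside the mutant peaks.

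**Figure D1:**
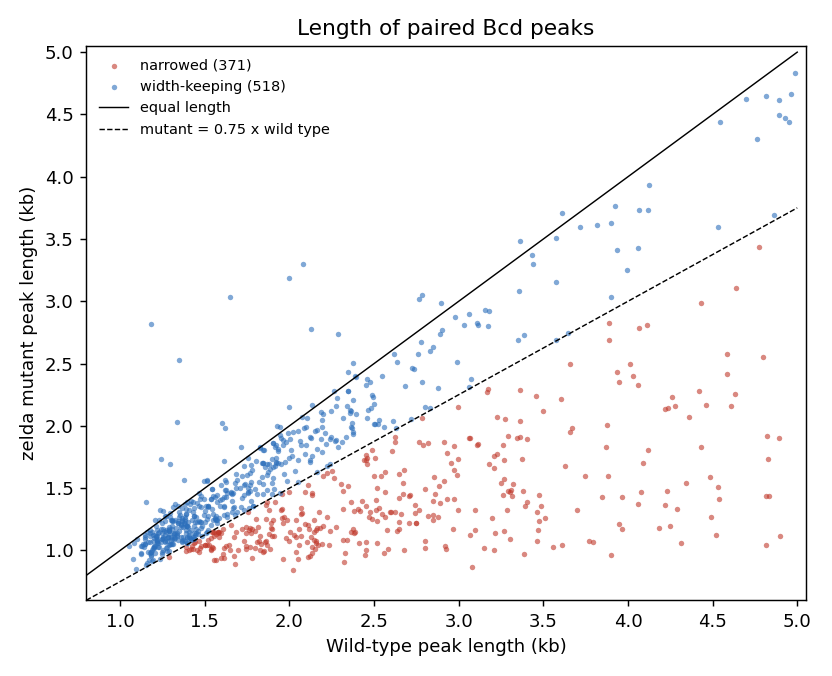
Length of the zelda mutant peak (vertical axis, kb) against that of the wild-type peak (horizontal axis, kb), with 1 point per pair, for 371 narrowed and 518 width-keeping pairs. Mutant length rises with wild-type length in the narrowed pairs, but less steeply than in the width-keeping pairs, which follow the line of equal length.

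The narrowed peaks lost as much on the left as on the right, and how many count as lost on one flank depends on the limit used. A loss was called one-sided where at least 75% of the lost bases were on the same flank, left being the side of lower coordinates. By that measure 117 peaks were lost on the left, 120 on the right and 134 on both flanks. One-sided loss thus made up 237 of 371 pairs (63.9%, 58.9 to 68.6), against 55.6% of all pairs within the limits that lost any base. With at least 90% of the lost bases asked for, the share of one-sided narrowed pairs was 25.1%. Of the one-sided losses 49.4% (43.1 to 55.7) were on the left. Summed over all pairs, 239.5 kb were lost on the left and 240.5 kb on the right. Counted by chromosome orientation, the centromere side was lost in 132 of 234 one-sided narrowed pairs on the large arms (56.4%, 50.004 to 62.61). The same share was 132 of 245 (53.9%, 47.6 to 60.0) in width-keeping pairs and 367 of 677 (54.2%, 50.4 to 57.9) over all one-to-one pairs. The share in narrowed pairs was thus near that of shared peaks in general. The intervals cover counting error only, and no preference for a side is read from them.

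Few pairs lost bases on one side alone. Both edges had moved inwards in 358 of the 371 pairs (96.5%), against 1010 of all 1187 pairs (85.1%) and 393 of the 518 width-keeping pairs (75.9%). The mutant peak reached past a wild-type edge in 12 narrowed pairs (3.23%), against 176 of all 1187 pairs (14.8%) and 125 width-keeping pairs (24.1%). The limit on the ratio leaves less room for an outward edge, so these shares are set in part by the rule. In most of the 12 narrowed pairs the mutant peak passed the edge by under 50 bp. The exceptions were on 2R, where the mutant peak began 264 bp before the wild-type start at 15936396, and on 3R, where it ended 80 bp after the wild-type end at 4758296. The peak that lost most on the left was on 2R, from 4530581 to 4531624 in the mutant and from 4527032 to 4531846 in wild type. It lost 3549 bp on the left and 222 bp on the right. The peak that lost most on the right was also on 2R, from 7284346 to 7285780 in the mutant and from 7284068 to 7288899 in wild type. There the loss was 3119 bp on the right and 278 bp on the left.

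**Figure D2:**
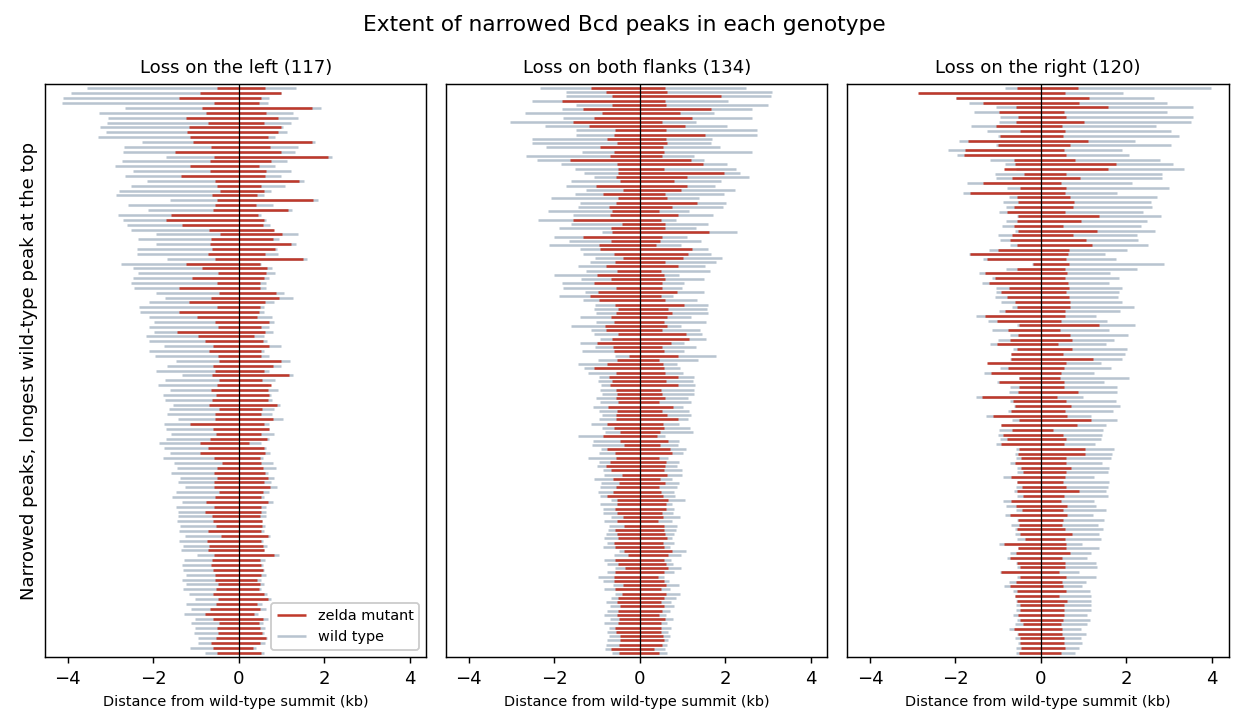
Extent of each of the 371 narrowed peaks in the zelda mutant (red) and in wild type (grey), as distance from the wild-type summit in kb, with 1 row per pair, sorted by wild-type length and split by the flank lost. The red cores lie around the summit in all 3 panels, which the rule on summits asks for. Their median lengths were 1299 bp for loss on the left, 1185 bp for loss on both flanks and 1324 bp for loss on the right.

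The flank that was lost was the one that reached farther from the summit. Each peak was divided at its own summit into a longer and a shorter arm. In the narrowed pairs 331 of 371 lost more bases on the longer wild-type arm (89.2%, 85.7 to 92.0), against 71.3% of all 889 pairs within the limits and 303 of 518 width-keeping pairs (58.5%, 54.2 to 62.7). The longer wild-type arm kept a median of 44.4% of its length in the mutant (interquartile range 32.9 to 57.9), and the shorter arm kept 74.9% (61.2 to 84.4). Over all 1187 pairs the medians were 66.8% for the longer and 85.6% for the shorter arm. In width-keeping pairs they were 87.6% and 90.9% in the same order. By the median, the longer arm thus kept less in each set, and the limit on the ratio asks for low shares in narrowed pairs. In 39 of 371 narrowed pairs (10.5%) under 25% of the longer arm was kept. The 10th percentile of the share kept was 24.6% in narrowed pairs and 22.6% over all 1187 pairs. Loss this deep was thus about as common among shared peaks in general. In width-keeping pairs the lowest share kept was 31.5%. A long arm also has more bases to lose than a short one.

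Wild-type peaks of this group were lopsided, and their mutant cores were about as even as shared mutant peaks in general. The shorter arm measured a median of 0.78 of the longer arm in the mutant, against 0.57 in wild type. Over the 518 width-keeping pairs it was 0.74 in the mutant and 0.75 in wild type, and over all 1187 pairs 0.71 and 0.61 in the same order. In bp, the longer arm of narrowed pairs had a median of 697 bp in the mutant and 1601 bp in wild type, and the shorter arm 543 bp and 837 bp in the same order. The mutant peak was the more even one in 270 of 371 narrowed pairs (72.8%, 68.0 to 77.1), against 56.9% of all 889 pairs. Among width-keeping pairs with a wild-type peak of at least 2000 bp, 47 of 149 were more even in the mutant (31.5%, 24.6 to 39.4), and the arms measured 0.45 in the mutant and 0.51 in wild type. Long and lopsided wild-type peaks were thus also found among those that kept their width. In the narrowed pairs with a wild-type peak of at least 2000 bp the same ratio was 0.74 in the mutant and 0.53 in wild type (269 pairs).

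The lopsidedness of the wild-type peak went with the flank lost. Where the shorter wild-type arm was under 0.5 of the longer one, all of 150 narrowed peaks lost more on the longer arm and 138 had a one-sided loss (92.0%, 86.5 to 95.4). Where it was at least 0.67 of the longer arm, 106 of 144 lost more on the longer arm (73.6%, 65.9 to 80.1) and 51 had a one-sided loss (35.4%, 28.1 to 43.5). The same shares were not counted for width-keeping pairs of like shape, and 71.3% of all 889 pairs, whatever their shape, lost more on the longer arm. The rule asks for a ratio under 0.75 and close summits, and a lopsided peak has most of its bases on the longer arm. This relation is thus set in part by the rule and is no finding.

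**Figure D3:**
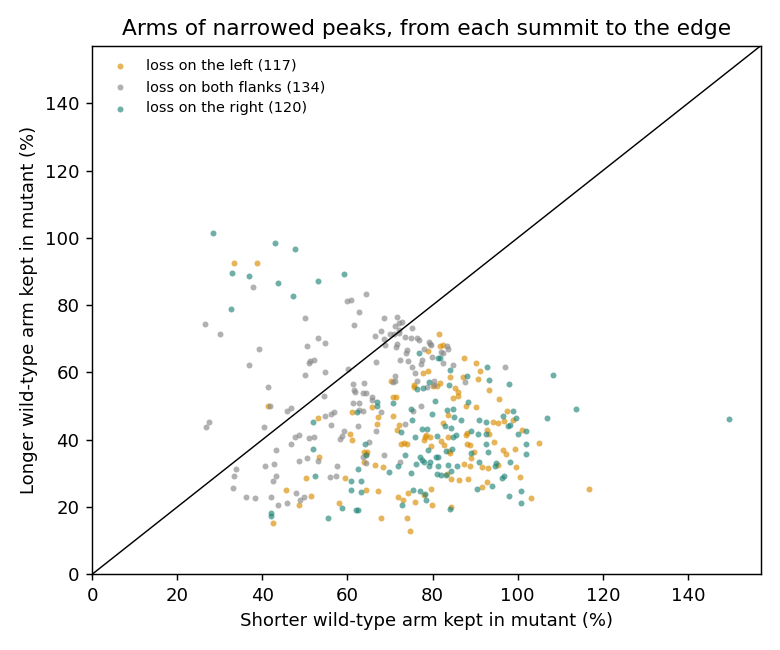
Share of the longer wild-type arm kept in the mutant (vertical axis, %) against the share of the shorter arm kept (horizontal axis, %), each arm measured from the summit of its own peak, for the 371 narrowed pairs coloured by the flank lost. Most points lie below the diagonal of equal loss, with medians of 44.4% for the longer and 74.9% for the shorter arm. Over all 1187 one-to-one pairs the medians were 66.8% and 85.6% in the same order.

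The rule keeps only pairs with close summits, and within it narrowed and width-keeping pairs had summits about equally near. The mutant summit lay a median of 34 bp from the wild-type summit (interquartile range 14 to 64) in the narrowed pairs, and 32 bp (13 to 59) in the width-keeping pairs, all within the 200 bp the rule allows. Over all 1187 one-to-one pairs, which have no such limit, the median was 47 bp. Where the loss was one-sided and the summit moved at all, it moved away from the lost flank in 122 of 234 narrowed pairs (52.1%, 45.8 to 58.5). The same share was 142 of 245 width-keeping pairs (58.0%, 51.7 to 64.0) and 397 of 678 over all one-to-one pairs (58.6%, 54.8 to 62.2). These intervals cover counting error over peaks of the same libraries only. No difference between the groups is read from them.

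The 10 most strongly narrowed peaks, with ratios of 0.22 to 0.28, had mutant lengths of 865 to 1266 bp and wild-type lengths of 3081 to 4899 bp. Of these peaks 5 lost the right flank, 2 the left and 3 both. The first, the 2R peak from 4527032 to 4531846 in wild type, had 118 tags (exact Poisson 95% interval 98 to 141) and a fold enrichment of 3.93 in the mutant, against 2638 tags (2538 to 2741) and a fold of 9.80 in wild type. Fold enrichment is the authors' own value of each peak, ChIP signal divided by the background that MACS estimated around the peak. Its mutant core kept 12.9% of the longer arm and 74.7% of the shorter one, so nearly all that remained lay at the right end. The next, on 2R from 19805853 to 19806964 in the mutant and from 19802798 to 19807696 in wild type, was weak in both lists, with a fold of 3.82 in the mutant and 3.94 in wild type. On 3L, the peak from 8662909 to 8663869 in the mutant and from 8662230 to 8666126 in wild type had a fold of 3.25 in the mutant and 10.72 in wild type, with 106 mutant tags (87 to 128) and 3702 wild-type tags (3584 to 3823). It was thus among the strongest wild-type peaks and among the weaker mutant ones.

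The other members of these 10 showed the same span of strengths. On 2R, the peak from 7078733 to 7079792 in the mutant and from 7077957 to 7082267 in wild type lost 2475 bp on the right and had a fold of 4.13 in the mutant and 9.39 in wild type. Another on 2R, from 5368969 to 5370037 in the mutant and from 5368664 to 5372454 in wild type, lost 2417 bp on the right and had folds of 5.53 in the mutant and 7.75 in wild type. On 2L, the peak from 5236895 to 5238016 in the mutant and from 5236467 to 5240988 in wild type lost 2972 bp on the right, with a fold of 4.94 in the mutant and 6.36 in wild type. One peak of the 10 had the higher fold in the mutant. It lay on 3R from 3300021 to 3301200 in the mutant and from 3298048 to 3302229 in wild type, with folds of 4.83 in the mutant and 4.29 in wild type. The peak on 3R from 5 to 869 in the mutant and from 1 to 3081 in wild type lies at the very start of the arm's sequence. It lost 2212 bp on the right and 4 bp on the left. The last members lay on 3R, from 11088615 to 11089810 and from 8302682 to 8303947 in the mutant, with folds of 3.76 and 3.24 in the mutant list.

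Fold enrichment was lower in the mutant list for most narrowed peaks, as it was for shared peaks in general. The median fold was 4.10 in the mutant (interquartile range 3.47 to 5.06) and 6.20 in wild type (5.01 to 7.66). Over all 1187 one-to-one arm pairs it was 4.10 in the mutant and 5.86 in wild type. In 31 of 371 narrowed pairs the mutant had the higher fold (8.36%, 5.95 to 11.6), against 10.3% of all 1187 pairs, so this share was near that of shared peaks at large. The mutant score (−10 times the log10 of the peak's p) was the higher one in 92 narrowed pairs (24.8%, 20.7 to 29.4), against 38.9% of all pairs. The tag density of the called peak (RPKM, reads per kilobase per 1e+06 ChIP tags) was higher in the mutant in 246 narrowed pairs (66.3%, 61.4 to 70.9), against 76.3% of all pairs. Its median was 13.4 in the mutant and 12.6 in wild type for narrowed pairs, and 14.7 and 12.2 in the same order for width-keeping pairs. The density is taken over the called length, so it is not independent of the lengths that chose the pairs. MACS scaled the lists to different depths, and a difference in fold or score between the lists is no direct measure of how much Bcd was bound.

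Within the narrowed group, deeper narrowing did not go with a lower mutant fold. The Spearman correlation of the length ratio with the mutant fold was -0.01, and with the wild-type fold -0.13, over 371 pairs that share the same libraries. The rule limits the range of the ratio here. Over all 1187 pairs the same correlations were 0.20 with the mutant fold and -0.08 with the wild-type fold. The 129 narrowed peaks with a ratio under 0.5 had a median fold of 4.08 in the mutant and 6.52 in wild type. The 242 with a ratio of at least 0.5 had 4.15 in the mutant and 6.08 in wild type. The median of mutant fold over wild-type fold was 0.66 in the 129 and 0.71 in the 242. Peaks lost on the left had a median fold of 4.28 in the mutant and 6.36 in wild type, those lost on the right 4.30 and 6.06 in the same order, and those lost on both flanks 3.94 and 6.36.

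The false discovery rate (FDR) that MACS gives each peak was high for many mutant cores, as for shared mutant peaks in general. Its median was 10.1% in the mutant and 5.32% in wild type, against 9.87% and 7.11% in the same order over all 1187 pairs. An FDR of at most 5% was reached by 42 of the 371 mutant peaks (11.3%, 8.49 to 14.9), against 15.2% over all pairs, and by 184 of the wild-type peaks (49.6%, 44.5 to 54.7), against 41.5% over all pairs. In 35 narrowed pairs both peaks reached it (9.43%, 6.86 to 12.8), against 12.5% over all pairs.

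**Figure D4:**
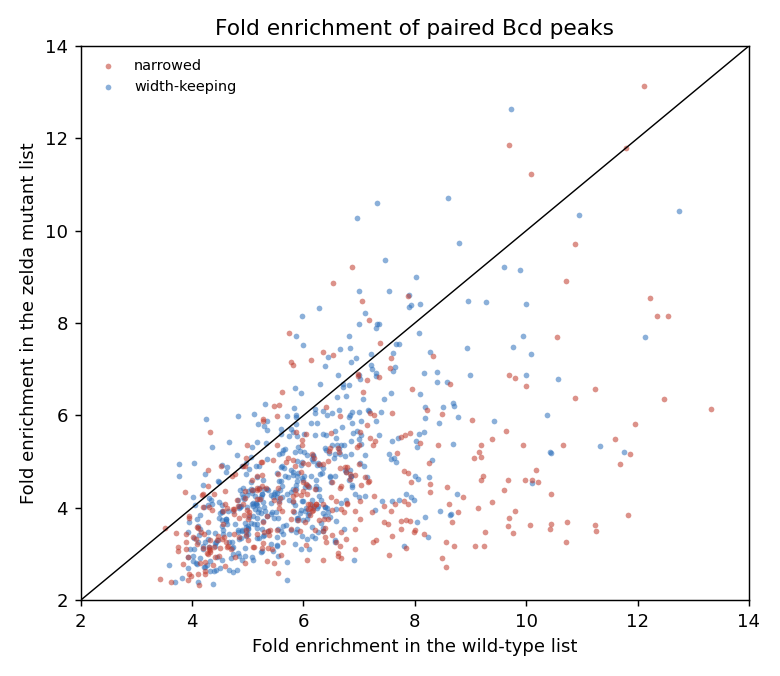
Fold enrichment in the zelda mutant list (vertical axis) against that in the wild-type list (horizontal axis) for 371 narrowed and 518 width-keeping pairs, with the diagonal of equal fold. Both groups lie mostly below the diagonal, with 31 narrowed and 67 width-keeping pairs above it, and narrowed pairs are common at the lower right, where the wild-type fold is high and the mutant fold low.

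The 10 narrowed peaks with the highest wild-type fold, 11.80 to 13.31, had mutant folds of 3.85 to 13.14 and ratios of 0.31 to 0.74. Of these, 5 lost the left flank, 2 the right and 3 both. The first, on 2L from 11454934 to 11456319 in the mutant and from 11454767 to 11457129 in wild type, lost 810 bp on the right and 167 bp on the left. On X, the peak from 2331930 to 2333760 in the mutant and from 2330117 to 2334547 in wild type lost 1813 bp on the left and 787 bp on the right, with a fold of 8.16 in the mutant and 12.54 in wild type. Also on X, the peak from 8547442 to 8549307 in the mutant and from 8547237 to 8550053 in wild type lost 746 bp on the right. It was one of the 40 narrowed peaks that did not lose more on the longer arm, which kept 82.6% of its length while the shorter one kept 47.2%. The peak on X from 20550885 to 20552180 in the mutant and from 20550518 to 20553063 in wild type had the lowest mutant fold of the 10, 3.85, against 11.83 in wild type. The peak on 3R from 7396826 to 7397784 in the mutant and from 7396399 to 7398521 in wild type had a fold of 5.16 in the mutant and 11.87 in wild type. The remaining members on X were the one from 9583896 to 9585961 in the mutant, with a fold of 8.16 there, and the one from 15518309 to 15519472, with a fold of 5.82.

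Some narrowed peaks were as enriched in the mutant list as in the wild-type list. The highest mutant fold was on 2R from 5873149 to 5874560, with 13.14 and 390 tags (352 to 431) in the mutant, against 12.11 and 3916 tags (3794 to 4041) in the wild-type peak from 5870638 to 5875177. This peak lost 2511 bp on the left and 617 bp on the right, and its summits were 4 bp apart. Its wild-type left edge lay 512 bp from another wild-type peak, whereas the nearest mutant peak on that side was 3230 bp from that edge. The next, on 3R from 16422746 to 16424317 in the mutant and from 16421880 to 16425146 in wild type, lost 866 bp on the left and 829 bp on the right, with folds of 11.85 in the mutant and 9.69 in wild type. On 2R, the peak from 19526206 to 19527537 in the mutant and from 19525176 to 19527582 in wild type lost 1030 bp on the left and 45 bp on the right. Its folds of 11.78 in the mutant and 11.80 in wild type were nearly equal. On 3L, the peak from 14165672 to 14167369 in the mutant and from 14165035 to 14167989 in wild type lost 637 bp on the left and 620 bp on the right, with folds of 11.23 in the mutant and 10.08 in wild type. The last of the 5, on 2R from 4119253 to 4120696 in the mutant and from 4118603 to 4122077 in wild type, lost 1381 bp on the right and 650 bp on the left, with folds of 9.71 in the mutant and 10.88 in wild type. Of these 5, chosen for a high mutant fold, 3 had the higher fold in the mutant.

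The longest one-sided losses included both strong and weak peaks. On the left, the peak on 3L from 16044732 to 16046631 in the mutant and from 16041723 to 16046617 in wild type lost 3009 bp, and its right edge was 14 bp farther out in the mutant. Its fold was 3.57 in the mutant and 4.10 in wild type. On 3R, the peak from 21152825 to 21154743 in the mutant and from 21150111 to 21154929 in wild type lost 2714 bp on the left, with a fold of 2.39 in the mutant and 3.63 in wild type. On the right, the peak on 3L from 13370879 to 13372470 in the mutant and from 13370491 to 13374973 in wild type lost 2503 bp, with a fold of 6.57 in the mutant and 11.24 in wild type. On 2R, the peak from 13755989 to 13757461 in the mutant and from 13755941 to 13760173 in wild type lost 2712 bp on the right and 48 bp on the left, with a fold of 3.57 in the mutant and 3.51 in wild type.

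The share of narrowed pairs differed with the length and the score of the wild-type peak. Wild-type length is the denominator of the ratio that chose the pairs, so its relation to the share is set in part by the rule and is no finding. Among the 889 pairs, the share narrowed was 1.68% (0.57 to 4.81) in the quintile with the shortest wild-type peaks (up to 1394 bp) and 74.7% (67.9 to 80.5) in the quintile with the longest (from 2918 bp). The shortest arm peak was 779 bp in the mutant list and 1051 bp in the wild-type list. The part of this shortest mutant length in the low share was not tested. By wild-type score the share was 31.5% (25.1 to 38.6) in the lowest quintile and 62.9% (55.6 to 69.7) in the highest. By mutant score it ran the other way, with 57.9% (50.5 to 64.9) in the lowest quintile and 32.6% (26.1 to 39.8) in the highest. Narrowed pairs were thus found at every level of score. Score itself rose with peak length over all 1187 pairs, with a Spearman correlation of 0.51 for wild-type peaks and 0.57 for mutant peaks. Both lengths enter the ratio that chose the pairs. The opposite trends with the 2 scores are therefore also set in part by the rule and are no finding.

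The wild-type fold of narrowed pairs was slightly higher than that of width-keeping pairs, 6.20 against 5.88, and the order depended on what was held alike. In the lowest quintile of wild-type score it was 4.36 for narrowed and 4.90 for width-keeping pairs, and it was also lower for narrowed pairs in the next 3 quintiles. In the highest quintile it was 8.82 for narrowed and 7.96 for width-keeping pairs. By mutant score the wild-type fold was lower for narrowed pairs in the lowest quintile, 5.30 against 5.52, and higher in the other 4, with 7.32 against 6.82 in the highest. By wild-type length it was higher for narrowed pairs in all 5 quintiles, with 6.66 against 5.84 in the longest. The mutant fold was lower for narrowed pairs in every quintile of wild-type score, with 3.78 against 3.92 in the lowest and 4.60 against 5.88 in the highest. By mutant score it was higher for narrowed pairs in 3 of 5 quintiles, with 3.40 against 3.34 in the lowest and 6.61 against 6.11 in the highest.

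**Figure D5:**
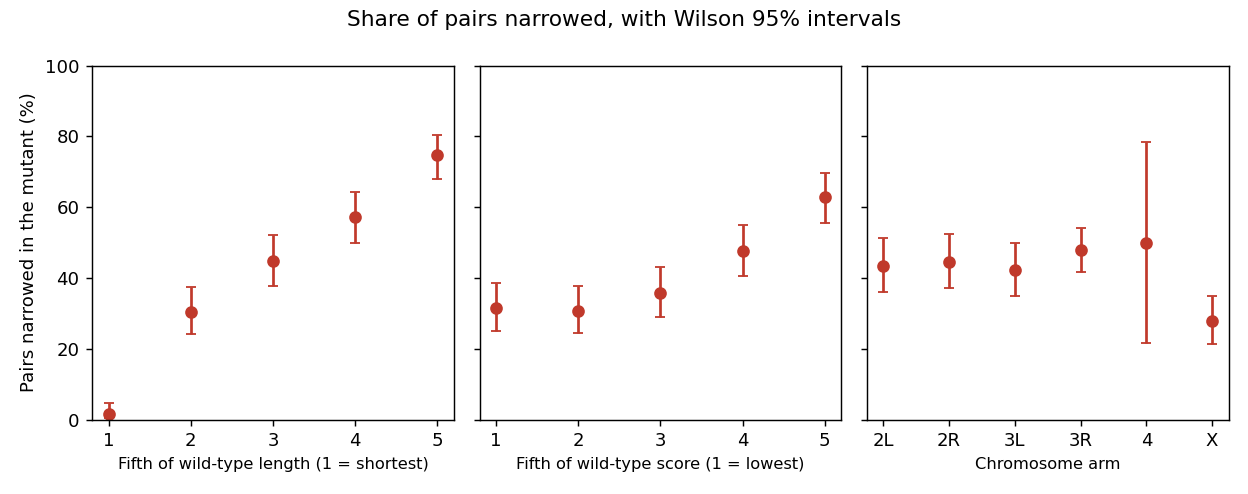
Share of pairs narrowed in the mutant (vertical axis, %), with Wilson 95% intervals, by quintile of wild-type length, by quintile of wild-type score and by chromosome arm, over 889 pairs. The share climbs with wild-type length to 74.7% and with wild-type score to 62.9%, and is 27.7% on X against 42.2 to 47.9% on the other large arms.

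Narrowed pairs were less frequent on X. The X chromosome held 46 narrowed pairs of 166 (27.7%, 21.5 to 35.0), against 325 of 723 on the autosomes (45.0%, 41.4 to 48.6). The share was 47.9% on 3R, 44.7% on 2R, 43.5% on 2L and 42.2% on 3L, with overlapping intervals, and 4 of 8 pairs on chromosome 4 were narrowed. X peaks were also shorter in wild type, with a median of 1715 bp over all X pairs within the limits, against 1999 bp on the autosomes, while the mutant medians were 1353 and 1339 bp in the same order. In the longest quintile of wild-type length 12 of 22 X pairs were narrowed (54.5%, 34.7 to 73.1), against 121 of 156 autosomal pairs (77.6%, 70.4 to 83.4). In the second quintile the X share was the higher one, 13 of 34 (38.2%, 23.90 to 54.96) against 41 of 144 (28.5%, 21.7 to 36.3). The part of length in the lower X share was not tested beyond these quintiles.

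Some narrowed peaks had another wild-type peak close by. A further mutant peak lay within 2 kb of the edges of the wild-type peak in 75 of the 371 narrowed pairs (20.2%, 16.4 to 24.6), and a further wild-type peak in 141 (38.0%, 33.2 to 43.0). For width-keeping pairs the shares were 24.9% (21.4 to 28.8) for a mutant peak and 28.8% (25.03 to 32.81) for a wild-type peak. Over all 1187 pairs they were 22.0% for a mutant peak and 32.1% for a wild-type peak (29.5 to 34.8). Among wild-type peaks of at least 2000 bp the shares with a wild-type neighbour were 39.0% (33.4 to 45.0) for narrowed and 28.9% (22.2 to 36.6) for width-keeping pairs. The intervals cover counting error only, and close peaks can each count as the neighbour of the other. All 1187 pairs also include the narrowed ones, so no difference is read from these intervals. The lost flank did not face the neighbour more often than the kept one. Of 236 one-sided pairs with a nearest wild-type neighbour on a known side, it lay on the lost side in 111 (47.0%, 40.8 to 53.4). The same count was 330 of 681 (48.5%) over all one-to-one pairs and 127 of 247 (51.4%) in width-keeping pairs. The share in narrowed pairs was thus near that of shared peaks in general.

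Consecutive narrowed peaks within 5 kb of each other made up 27 cases, and some peaks entered more than 1 case. The outer flanks were lost in 3 of these cases, the facing flanks in 3 and the same side in 6, and in the other 15 at least 1 peak was lost on both flanks. Neighbouring width-keeping peaks were not counted in this way, so no pattern is read from these few cases. On 3L, the wild-type peaks from 8656818 to 8660876 and from 8662230 to 8666126 lay 1353 bp apart, and the first lost its left flank and the second its right flank. Their mutant cores, from 8658854 to 8660223 and from 8662909 to 8663869, had folds of 8.54 and 3.25, against 12.22 and 10.72 in wild type. On 3R, the wild-type peaks from 12651376 to 12653487 and from 12654518 to 12656518 lay 1030 bp apart and lost the facing flanks instead.

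The limit of 0.75 fell in a continuous range of ratios. The 5 pairs just inside it had ratios of 0.741 to 0.746, with mutant lengths of 1151 to 2066 bp and wild-type lengths of 1542 to 2781 bp. The 5 just outside had ratios of 0.751 to 0.752, with mutant lengths of 930 to 2690 bp and wild-type lengths of 1237 to 3575 bp. Folds just inside were 3.25 to 8.16 in the mutant and 4.32 to 12.34 in wild type, and just outside 3.16 to 4.27 in the mutant and 4.30 to 7.81 in wild type. The line between narrowed and width-keeping peaks is thus a convention of the rule and not a gap in the data.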

How the data were processed

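Bcd ChIP and input libraries of zelda mutant and wild-type embryos were processed by the authors into 1 peak list per genotype. Bowtie2, the build dm3 and MACS 1.4.2 are named in the submitters' processing notes. MACS compared 1 ChIP file with 1 control file at a p cutoff of 1e-05, per the file headers, with fragments of 200 bp and a band width of 300 bp. Duplicate positions were reduced to 1 tag, and the bigger of the ChIP and control sets was scaled down to the other, per the file headers. The joining of replicates is not described in the sources used here. The deposited tag count is the whole number of ChIP tags in a peak. The deposited score is −10 times the log10 of the p-value, the deposited fold is a ratio to local background, and the deposited FDR is in percent. Control tags numbered 17035242 in the mutant and 22487837 in wild type.

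Coordinates are those of dm3, counted from 1, and a summit is the start plus its offset minus 1. Left loss is the mutant start minus the wild-type start, and right loss the wild-type end minus the mutant end, with negative values set to 0. Shares have Wilson 95% intervals and tags exact Poisson 95% intervals, which cover counting error only. Replicate spread cannot be had from a single list for each genotype, and the genotypes were compared without p-values. Nothing in the labels says whether replicates came from separate collections. Named peaks are the 10 lowest ratios, the 10 highest wild-type folds, the 5 highest mutant folds, the 5 longest one-sided losses on each flank and the 5 pairs on each side of the limit. Peaks reaching past a wild-type edge and neighbouring peaks were named after their values were seen. The pairs and rules were chosen with earlier results of these data known. No genome or annotation of the build dm3 was used here, so peaks carry no gene names and the planned motif counts were not run. In simulated lists of 1000 wild-type peaks, all 675 narrowed pairs were found with the flank called correctly. The simulated losses lay wholly on a single flank or were split evenly, around equal summits, so none came near a limit. This checks the working of the code only and says nothing of calls near the limits. Alternatives were other limits on ratio, summit distance, length, overlap, score, FDR and flank share. Calculations used Python 3.11.15 with numpy 2.4.6, pandas 2.3.3, scipy 1.17.1 and matplotlib 3.10.9.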

Additional observations from a re-analysis of the deposited data

How the results depend on the processing

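The number of narrowed pairs, 371, became 129 with a ratio under 0.5, 659 with a ratio under 0.9, 196 with a score of at least 100 in both lists and 35 with an FDR of at most 5% in both; it stayed within 1.5 times for the other overlap, summit and length limits (251 to 480). The share with one-sided loss, 63.9%, became 25.1% at a limit of 90%, 86.5% at 60%, 69.0% with a ratio under 0.5, 53.0% with a ratio under 0.9 and 68.9% with a score of at least 100. The left share of one-sided losses, 49.4%, ranged from 48.2 to 54.8% over its 5 alternatives. The share losing more on the longer arm, 89.2%, became 97.7% with a ratio under 0.5 and 79.2% with a ratio under 0.9. With a score of at least 100 the median folds became 4.88 in the mutant and 6.90 in wild type, and with a ratio under 0.5 the wild-type fold became 6.52. The median wild-type fold of narrowed over width-keeping pairs, 1.054, became 1.63 for score in place of fold; within quintiles of wild-type score, low to high, it was 0.889, 0.905, 0.972, 0.973 and 1.11, so it turned round in the lowest 4. Stricter limits keep fewer pairs by construction; what moved the remaining values was not tested. No paired analysis was possible because replicates were merged into a single peak list for each genotype, which also prevents leaving one of them out. The mutant depth of 10060479 tags limits how far out a mutant edge can be called.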
